A study of Mus musculus with 12 samples.

Results

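The genes Mybl1, Tcfl5, Sohlh1, Sohlh2, Dmrt1, Dmrtb1 and Taf4b encode transcription factors that act as mouse male germ cells enter meiosis and pass through pachytene. They were found by gene symbol in both deposited count tables. They are 7 of the 54660 distinct entry names of the tables, of which 23502 are entries for testes and 51826 entries for sperm. Each symbol matched 1 entry in each table.

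Spermatogonia divide by mitosis, differentiate and enter meiosis, and the long pachytene stage that follows is when much of the later spermatid programme is switched on. SOHLH1 and SOHLH2 are basic helix-loop-helix (bHLH) factors of differentiating spermatogonia, DMRT1 restrains meiotic entry in spermatogonia and also acts in Sertoli cells, and DMRTB1 (also called DMRT6) acts as spermatogonia give way to spermatocytes. TAF4B is a gonad-enriched paralog of the TFIID subunit TAF4, MYBL1 (A-MYB) is the main activator of pachytene genes and of piRNA precursors, and TCFL5 is a bHLH factor of spermatocytes.

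RNA-seq was carried out on 12 libraries of 4 groups, 3 libraries in each, from male mice. The floxed Xap5 and Xap5l KO lines were made on the C57BL/6J background, and that of the Stra8-GFPCre knockin is not given. Whole testes of P16 mice were either Xap5 cKO, in which floxed Xap5 was deleted by a Stra8-GFPCre knockin that is active in germ cells, or controls labelled WT, for which the study's text gives the Xap5 fl/Y genotype. Cauda epididymal sperm of P56 mice were either WT or Xap5l KO, a global deletion made with CRISPR/Cas9. Whole testis holds Sertoli, Leydig and other somatic cells beside the germ cells, so that a lower value can come from fewer cells of a type or from less RNA per cell, and these cannot be told apart. The sources used here do not say whether the 3 libraries of a group came from separate mice, so the p-values measure the spread between libraries.

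Library totals ranged from 32251198 to 36759054 counts in testes and from 38881197 to 52308452 counts in sperm. The Xap5 gene, entered as Fam50a, was at 24.7 ± 2.62 CPM (SD, n = 3; CPM is the count scaled to library size) in WT testes and 19.6 ± 1.43 CPM in Xap5 cKO testes, and the Xap5l gene, entered as Fam50b, was at 12.3 ± 4.48 CPM in the WT sperm libraries and 0.356 ± 0.195 CPM in those of Xap5l KO. WT testis library 3 stood apart from the other WT testes. Its Pearson correlation of log2 CPM across genes was 0.984 and 0.986 with the other WT libraries, which correlated with each other at 0.992. With the Xap5 cKO libraries it correlated at 0.952 to 0.956, where the other WT testes did so at 0.924 to 0.930. Its summed level of 8 pachytene spermatocyte markers was 1272 CPM, against 2475 and 2432 CPM in the other WT testes. Markers of elongating spermatids and sperm, 8 genes, summed to between 44899 and 129871 CPM in the sperm libraries and to between 4.70 and 5.84 CPM in the testes. In sperm, the mitochondrial share of a library lay between 10.5% and 27.4%, and library 1 of each genotype had a TMM factor (the scaling edgeR derives from the composition of a library) of 0.821 or 0.808 where the other 4 libraries lay between 1.08 and 1.12.

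The promoter sequences of members follow because 3 of these genes, Dmrtb1, Tcfl5 and Sohlh1, had the largest falls in the testis comparison. Sequences from RefSeq's promoter table of GRCm38.p6 were taken for 4 of the 7 members (Sohlh1, Sohlh2, Tcfl5 and Dmrtb1). No sequence is printed for the other members. Each sequence is the 250 bases before the annotated start, 5′ to 3′ on the strand of the gene. Capitals mark the GC box (GGGCGG, or CCGCCC on the other strand) and the palindromic E-box CACGTG, a site type bound by bHLH factors.
Sohlh1 (chr2:25847249-25847498, minus strand): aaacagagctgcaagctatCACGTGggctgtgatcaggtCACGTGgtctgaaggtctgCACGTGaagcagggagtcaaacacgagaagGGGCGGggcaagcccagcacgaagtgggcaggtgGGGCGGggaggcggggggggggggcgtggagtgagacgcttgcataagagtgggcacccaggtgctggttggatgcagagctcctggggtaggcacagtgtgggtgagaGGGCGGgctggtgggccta
Tcfl5 (chr2:180642692-180642941, minus strand): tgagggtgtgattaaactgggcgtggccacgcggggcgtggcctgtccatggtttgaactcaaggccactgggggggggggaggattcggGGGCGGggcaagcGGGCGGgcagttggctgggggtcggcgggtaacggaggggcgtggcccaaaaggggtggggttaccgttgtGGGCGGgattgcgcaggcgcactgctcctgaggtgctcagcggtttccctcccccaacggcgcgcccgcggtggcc
Dmrtb1 (chr4:107684231-107684480, minus strand): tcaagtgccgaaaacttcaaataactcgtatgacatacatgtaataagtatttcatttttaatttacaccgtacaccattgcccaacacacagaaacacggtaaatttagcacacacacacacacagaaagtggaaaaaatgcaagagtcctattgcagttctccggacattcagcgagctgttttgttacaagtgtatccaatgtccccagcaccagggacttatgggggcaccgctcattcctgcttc
Sohlh2 (chr3:55181794-55182043, plus strand): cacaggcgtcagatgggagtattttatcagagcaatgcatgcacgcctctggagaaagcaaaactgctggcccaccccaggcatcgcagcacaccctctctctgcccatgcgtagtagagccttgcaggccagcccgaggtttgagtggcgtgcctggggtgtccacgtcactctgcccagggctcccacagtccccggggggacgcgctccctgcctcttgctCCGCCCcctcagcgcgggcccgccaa
The Sohlh1 window held 3 copies of CACGTG, at 231, 211 and 192 bases before the start, and 3 GC boxes. Over all 32851 promoters of the table, 6.02% held at least 1 CACGTG and 32.7% at least 1 GC box in the same window. Tcfl5 held 3 GC boxes, Sohlh2 held 1, and the Dmrtb1 window printed here held 0. Dmrtb1 has another annotated start, inside the gene, whose window held 1 GC box. The core of the MYB site, AACNG on either strand, occurred 6 times before Tcfl5, 2 times before Dmrtb1, and 1 time each before Sohlh1 and Sohlh2. That core is present in 74.2% of all promoters. The DMRT core ACATTGT was in none of these windows and in 2.56% of all promoters. The GC content was 70.4% for Tcfl5, 64.8% for Sohlh2, 64.4% for Sohlh1 and 42.4% for Dmrtb1, beside a median of 52.4% over all promoters. These matches describe letters in a window and not binding.

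In Xap5 cKO testes all 7 members were below WT, with every Xap5 cKO library under every WT library. Of the 16821 genes tested, 32.4% had all Xap5 cKO libraries below all WT libraries. Genes were tested by edgeR's quasi-likelihood method, and p-values were adjusted over all genes tested by the Benjamini-Hochberg procedure. Lower values at an adjusted p under 0.05 were found for 7 of 7 members and for 28.1% of all genes, and 3 members were called downregulated with the added requirement of a fold change above 2, which 10.9% of all genes met. Among all genes, 4.15% were called upregulated and 25% were higher at an adjusted p under 0.05. The median log2 fold change was -0.71 over the members and -0.01 over all genes tested. The largest falls were those of Dmrtb1, Tcfl5 and Sohlh1, to 23.5%, 31.0% and 45.0% of the WT mean, and the smallest were those of Sohlh2 and Dmrt1, to 76.5% and 76.4%.

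**Figure D1:**
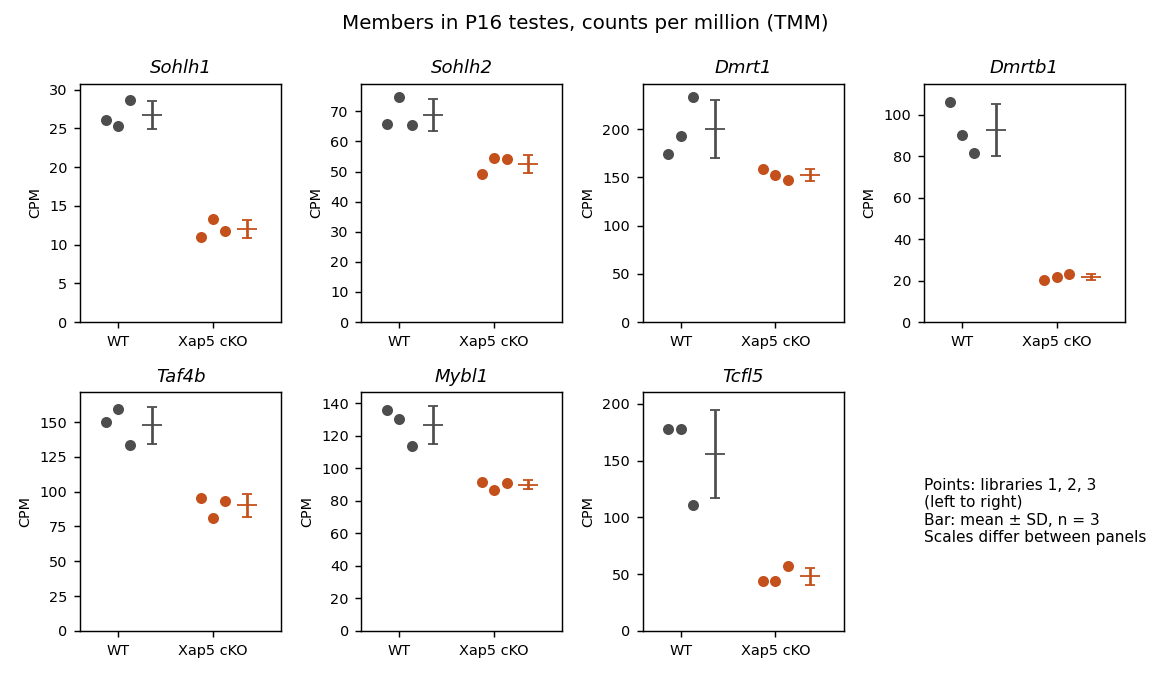
CPM (counts scaled to library size and TMM factor) of each member in the 3 WT and 3 Xap5 cKO testis libraries, with libraries 1 to 3 from left to right and the mean ± SD as a bar beside them (linear axes from 0, scales differ between panels). Every Xap5 cKO point lies below every WT point in all 7 panels, and the WT and Xap5 cKO means of Dmrtb1, the member with the largest fold change, are 92.6 and 21.8 CPM.

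Sohlh1 (chr2:25842995-25847248, minus strand, GRCm38), the bHLH factor needed for spermatogonial differentiation, was read at 26.1, 25.3 and 28.7 CPM in the WT libraries and at 11.04, 13.3 and 11.7 CPM in the Xap5 cKO libraries. The lowest WT library lay well above the highest Xap5 cKO library. The counts behind these values were 877 to 1032 in WT and 355 to 453 in Xap5 cKO. Sohlh1 was downregulated by a log2 fold change of -1.15 (SE 0.130, 95% interval -1.45 to -0.86, adjusted p = 0.000106).

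Its partner Sohlh2 (chr3:55182028-55209957, plus strand), which forms heterodimers with SOHLH1, stood at 65.8, 74.9 and 65.6 CPM in WT and at 49.2, 54.5 and 54.1 CPM in Xap5 cKO. The groups were separated, by a smaller step than for Sohlh1. Sohlh2 was lower by a log2 fold change of -0.39 (SE 0.0871, 95% interval -0.58 to -0.19, adjusted p = 0.00492), short of the 2-fold threshold.

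Dmrt1 (chr19:25505618-25604329, plus strand), the DM domain factor of spermatogonia and Sertoli cells, was at 174, 192 and 233 CPM in WT and at 159, 153 and 147 CPM in Xap5 cKO. WT library 3, which stood apart, held the highest value. Dmrt1 was lower by a log2 fold change of -0.39 (SE 0.0999, 95% interval -0.61 to -0.16, adjusted p = 0.00952), and by -0.26 (adjusted p = 0.00951) without that library. The summed level of 11 Sertoli cell markers moved the other way, from 1822 to 1955 CPM in WT to 3308 to 3385 CPM in Xap5 cKO. The part of Sertoli cells in the Dmrt1 value was not tested.

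Dmrtb1 (chr4:107676290-107684230, minus strand), a DM domain factor like DMRT1, was at 106, 90.3 and 81.3 CPM in WT and at 20.5, 21.7 and 23.2 CPM in Xap5 cKO. The lowest WT library had 2925 counts and the highest Xap5 cKO library 764, so the groups were far apart. Dmrtb1 had the largest fall among the members, a log2 fold change of -2.09 (SE 0.114, 95% interval -2.34 to -1.83, adjusted p = 8.8e-06).

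Taf4b (chromosome 18, plus strand), the germ-cell paralog of a core subunit of TFIID, was at 150, 159 and 133 CPM in WT and at 95.7, 81.0 and 93.5 CPM in Xap5 cKO. The groups did not overlap. Taf4b was lower by a log2 fold change of -0.71 (SE 0.0900, 95% interval -0.92 to -0.51, adjusted p = 0.000196), and 2-fold lay outside the interval.

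Mybl1 (chr1:9667415-9700209, minus strand), the A-MYB gene, was at 136, 130 and 113 CPM in WT and at 91.6, 86.6 and 91.1 CPM in Xap5 cKO. The Xap5 cKO libraries lay close together, below all WT libraries. Mybl1 was lower by a log2 fold change of -0.50 (SE 0.0791, 95% interval -0.67 to -0.32, adjusted p = 0.000717), so that 70.9% of the WT mean remained.

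Tcfl5 (chr2:180621956-180642708, minus strand), the bHLH factor of spermatocytes, was at 178, 178 and 111 CPM in WT and at 44.2, 43.6 and 56.9 CPM in Xap5 cKO. WT library 3 was again the exception, with the lowest WT value, and still lay above every Xap5 cKO library. Tcfl5 was downregulated by a log2 fold change of -1.69 (SE 0.185, 95% interval -2.11 to -1.27, adjusted p = 9.15e-05), and by -1.88 (adjusted p = 2.42e-06) without WT library 3. The gene shares 234 exonic bases with Col9a3 on the opposite strand, whose level was 7.32 ± 0.472 CPM in WT and 15.6 ± 0.966 CPM in Xap5 cKO testes (SD, n = 3). The use of strand in counting is not given in the sources used here, so reads of the shared bases cannot be assigned to either gene.

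**Figure D2:**
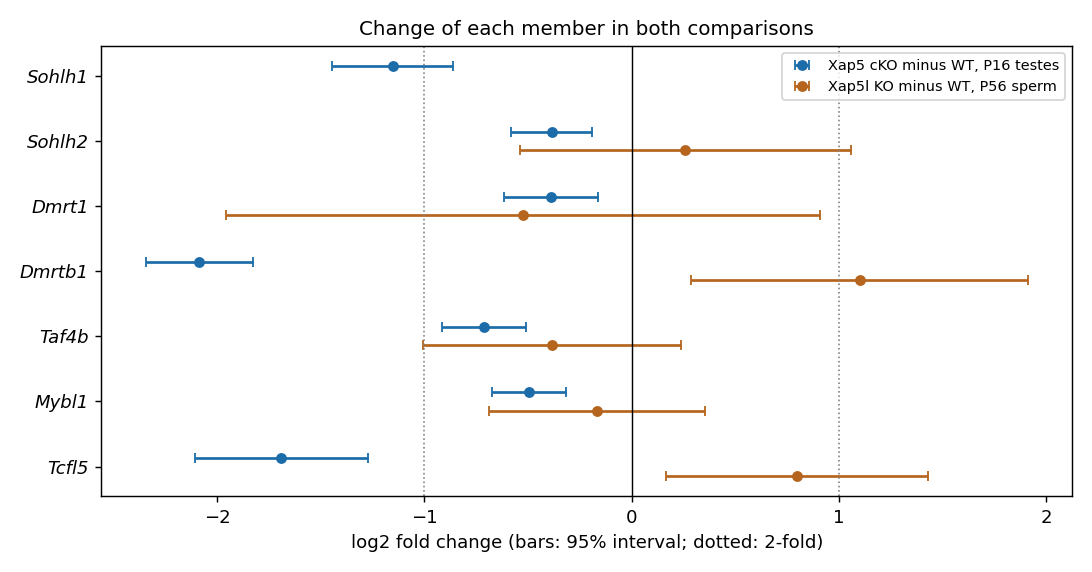
Log2 fold change of each member (points) with its 95% interval (bars) for Xap5 cKO against WT testes and for Xap5l KO against WT sperm, with dotted lines at 2-fold. All 7 testis intervals lie below 0, from -0.39 for Sohlh2 and Dmrt1 to -2.09 for Dmrtb1. In sperm the intervals of Tcfl5 and Dmrtb1 lie above 0 and the other 4 cross it, and Sohlh1 was not tested in sperm.

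Levels were next compared between genes as CPM per kilobase of exon. In WT testes Dmrt1 stood highest at 77.1 ± 11.6 CPM per kilobase, followed by Tcfl5 at 49.2 ± 12.3, Dmrtb1 at 44.5 ± 6.05, Sohlh2 at 29.1 ± 2.24, Taf4b at 28.6 ± 2.56, Mybl1 at 23.4 ± 2.17 and Sohlh1 at 20.7 ± 1.36 (SD, n = 3). The libraries of Tcfl5 and Dmrtb1 overlapped on this scale, as did those of Sohlh2 and Taf4b and those of Mybl1 and Sohlh1. In Xap5 cKO testes Dmrt1 was still highest at 58.9 ± 2.38 CPM per kilobase, but Sohlh2 came next at 22.3 ± 1.25, ahead of Taf4b at 17.5 ± 1.54, Mybl1 at 16.6 ± 0.517 and Tcfl5 at 15.2 ± 2.38. Dmrtb1 at 10.5 ± 0.660 and Sohlh1 at 9.32 ± 0.902 CPM per kilobase were the lowest. Taf4b overlapped Mybl1, Mybl1 overlapped Tcfl5, and Dmrtb1 overlapped Sohlh1. Tcfl5 and Dmrtb1 thus moved from places 2 and 3 to places 5 and 6.

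The unequal falls were followed as ratios of counts within each library, which do not depend on library size. The log2 ratio of Dmrtb1 to Dmrt1 was -0.72, -1.09 and -1.52 in the WT testes and -2.96, -2.81 and -2.66 in the Xap5 cKO testes, a mean difference of -1.70. The ratio of Tcfl5 to Mybl1 was 0.39, 0.45 and -0.03 in WT and -1.05, -0.99 and -0.68 in Xap5 cKO, a mean difference of -1.17. WT library 3 lay nearest to the Xap5 cKO libraries in both of these ratios. The ratio of Sohlh1 to Sohlh2 was -1.33, -1.56 and -1.19 in WT and -2.16, -2.04 and -2.21 in Xap5 cKO, a mean difference of -0.77. The ratio of Taf4b to Taf4, the ubiquitous paralog, was 0.97, 0.98 and 0.77 in WT and 0.61, 0.21 and 0.65 in Xap5 cKO, a mean difference of -0.42. None of the 4 ratios overlapped between the genotypes, but these pairs were chosen after their values were seen. How often other pairs of genes separate in this way was not computed. The two-sided exact permutation p was 0.1 for each, the smallest that 3 libraries against 3 can give, and 0.133 with Benjamini-Hochberg adjustment over the 8 ratios of both tissues.

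**Figure D3:**
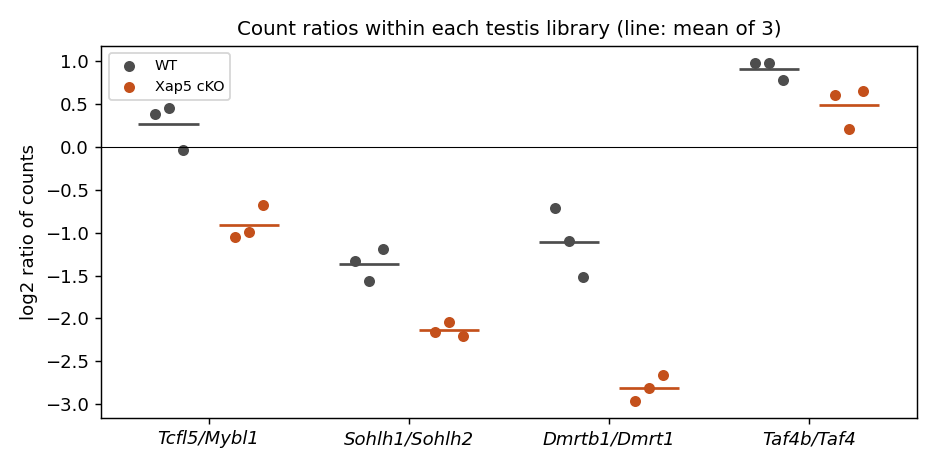
Log2 ratio of counts between paired genes within each testis library (points, with libraries 1 to 3 from left to right) and the mean of 3 libraries (lines). The Xap5 cKO points lie below the WT points for all 4 pairs, by 1.70 on average for Dmrtb1/Dmrt1, the widest step, and 0.42 for Taf4b/Taf4, the narrowest.

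Relatives of the members in the same families were described next. Of 6 other DMRT genes tested in testes, 1 was upregulated and 1 downregulated, beside 4.15% and 10.9% of all genes tested. Dmrtc2, a DMRT gene of spermatocytes, went from 93.2 ± 13.2 to 21.8 ± 2.45 CPM, or -2.09 on the log2 scale (adjusted p = 1.09e-05), beside the -2.09 of Dmrtb1. Dmrta2 went from 1.55 ± 0.458 to 4.38 ± 0.919 CPM, or 1.49 on the log2 scale (adjusted p = 0.00353). Of the 2 other MYB genes, 0 were called by edgeR or by DESeq2 and 1 had an unadjusted p under 0.05, which was Mybl2 (B-MYB, a cell cycle factor), lower by -0.61 (adjusted p = 0.0127). Of 14 core TFIID subunits, 2 were downregulated, beside 10.9% of all genes tested. These were Tbp, the TATA-binding protein, at -1.07 (adjusted p = 0.000111) and Taf9 at -1.05 (adjusted p = 0.000356). Without the fold threshold 11 of the 14 were lower and 0 were higher, beside 28.1% and 25% of all genes, with a median of -0.42. Taf4 was lower by -0.29 (adjusted p = 0.0147). Of 3 germ-cell TFIID paralogs tested, 0 were called by edgeR or by DESeq2. Among them 1 was lower at an adjusted p under 0.05, which was Tbpl1 at -0.88 (adjusted p = 4.92e-05).

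The pathways around the members were counted next. Of 10 regulators of meiotic entry, 5 were downregulated, 0 upregulated and 5 not called, with a median log2 fold change of -1.01. Stra8, the retinoic acid-induced gene that starts meiosis and after which the Cre knockin is named, went from 120 ± 5.95 to 31.4 ± 2.43 CPM, or -1.93 on the log2 scale (adjusted p = 6.8e-06). The genotype given for the controls does not mention the knockin, and the part of the knockin in the Stra8 value was not tested. Of 10 transcription regulators active from pachytene on, 6 were downregulated, 1 upregulated and 3 not called, with a median of -1.30. Phf7, a histone reader of spermatids, had the largest fall of these at -2.80 (adjusted p = 5.87e-05), and Zfy2, a Y-linked zinc finger gene, was upregulated by 1.48 (adjusted p = 0.000892).

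All 8 piRNA pathway genes known as A-MYB targets were lower at an adjusted p under 0.05, and 6 of them were downregulated, with a median log2 fold change of -2.17. Piwil1, which encodes the pachytene piRNA-binding protein MIWI, went from 379 ± 145 to 4.83 ± 0.601 CPM, or -6.30 on the log2 scale (adjusted p = 8.8e-06), whereas Mybl1 itself changed by -0.50. Among 4 germ-cell genes placed downstream of the SOHLH factors in the ovary or testis, 2 were downregulated. Lhx8 changed by -1.74 (adjusted p = 0.000407) and Figla, which is also the 1 gene called of 5 gonadal bHLH genes and E proteins, by -1.57 (adjusted p = 0.027) on 13 to 98 counts. Over these lists without the cell type markers, 21 of 58 tested genes were downregulated and 2 upregulated, beside 10.9% and 4.15% of all genes tested.

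Markers of germ-cell stages differed in how many were lower. The 8 pachytene markers were all downregulated, and their summed level was 1272 to 2475 CPM in WT and 180 to 287 CPM in Xap5 cKO. Of 11 leptotene and zygotene markers, 9 were downregulated, led by Spo11, the nuclease that makes meiotic double-strand breaks, at -2.74 (adjusted p = 1.27e-05). Their summed level was 2644 to 3092 CPM in WT and 1228 to 1601 CPM in Xap5 cKO. Of 12 markers of undifferentiated spermatogonia 3 were downregulated, with Id4 at -1.54 (adjusted p = 0.000101), and 9 were not called. Without the fold threshold 5 of the 12 were lower and 2 were higher, which were Etv5 at 0.95 (adjusted p = 9.57e-05) and Gfra1 at 0.56 (adjusted p = 0.0321), and the summed level was 498 to 518 CPM in WT and 374 to 429 CPM in Xap5 cKO. Of 5 markers of differentiating spermatogonia 1 was downregulated, which was Stra8, and without the fold threshold 4 were lower and 1 was higher, which was Ccnd2 at 0.52 (adjusted p = 0.00399). Their sums were 373 to 423 and 250.5 to 269 CPM. Of 7 round spermatid markers 4 passed the filter and 1, Acr, was downregulated, at 403 to 954 counts in WT and 0 to 9 in Xap5 cKO.

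Of the somatic cell markers called in testes, all were upregulated in the Sertoli, Leydig and leukocyte lists. Of 11 Sertoli markers 2 were upregulated and 10 were higher at an adjusted p under 0.05, with Amh at 1.14 (adjusted p = 6.44e-05). Of 6 Leydig markers 3 were upregulated, and of 5 tested leukocyte markers 4 were upregulated, with Csf1r at 1.25 (adjusted p = 0.000255). Among 5 peritubular myoid markers 0 were called by edgeR or by DESeq2, and 3 were higher at an adjusted p under 0.05. The summed Leydig level was 193 to 336 CPM in WT and 389 to 737 CPM in Xap5 cKO, that of leukocytes was 72.3 to 105 and 153 to 206 CPM, and that of myoid cells was 506 to 661 and 731 to 795 CPM. The part of this shift in cell makeup in the values of the 7 members was not tested.

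**Figure D4:**
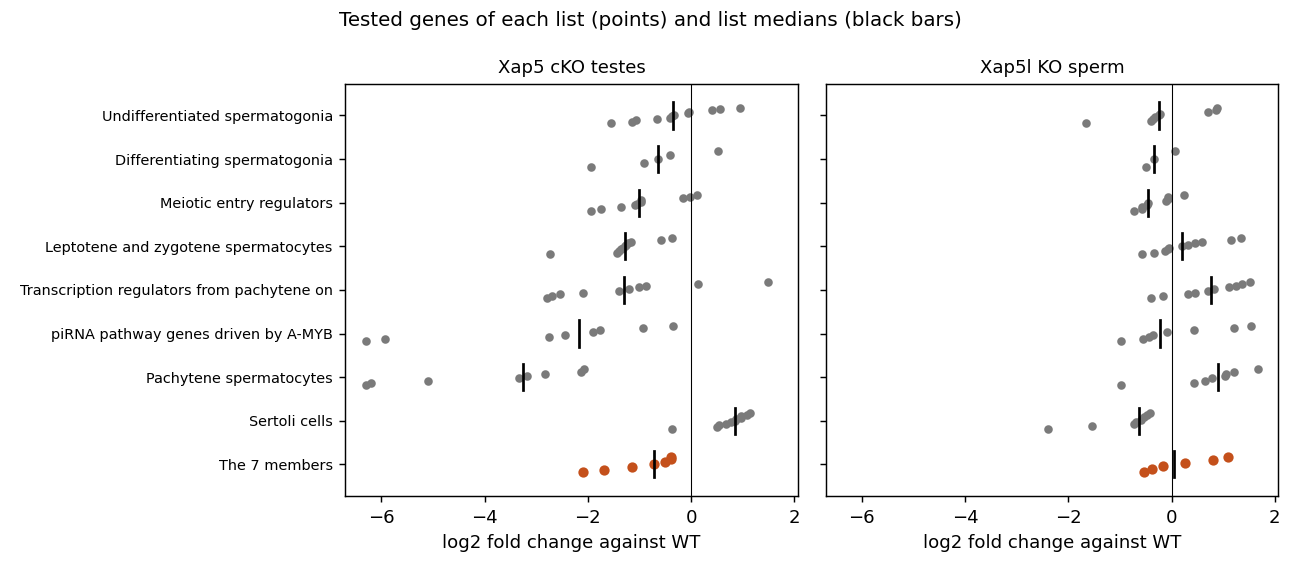
Log2 fold changes of the tested genes (grey points) of 8 gene lists and of the 7 members (orange points, 6 of them tested in sperm), with the median of each list as a black bar, in Xap5 cKO testes and Xap5l KO sperm on a shared axis. In testes the member median of -0.71 lies between those of the differentiating spermatogonia at -0.65 and of the meiotic entry regulators at -1.01, and the pachytene markers lie lowest at -3.26.

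The genes most like each member over the 6 testis libraries were ranked by the root mean square difference of log2(CPM + 1) values centred on their own mean, among 15220 genes with at least 1 CPM. For Dmrtb1 these were Ttc26, Boll and Gm884, at differences of 0.0786 to 0.0894. Boll, an RNA-binding protein of the DAZ family needed for spermatocytes to complete meiosis, went from 139 to 35.6 CPM. For Tcfl5 they were 1700021F07Rik, Nek2-2 and Pomt1 (0.0543 to 0.0687). Of these 1700021F07Rik was at only 2.47 CPM in WT and 0.0607 CPM in Xap5 cKO, a log2 fold change of -5.27, and the 1 CPM added before taking logs shrinks so low a gene's change to near that of Tcfl5. For Sohlh1 they were Rbp4, Ckap2l and Pdxp (0.0467 to 0.0622). The members with smaller changes were most like Gps1, AU040320 and Cul4a for Mybl1 (0.0165 to 0.0236), Rbm15, Taf10 and Arl13b for Sohlh2 (0.0315 to 0.0393), Gpatch3, Hdgfl3 and Rsbn1l for Dmrt1 (0.0423 to 0.0491), and Senp1, Atg2b and Rbm14 for Taf4b (0.0327 to 0.0436). Taf10 is a core TFIID subunit.

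In sperm the members fell into 2 sets by level. Per kilobase of exon, Dmrtb1 stood at 58.9 ± 19.9 and Tcfl5 at 38.3 ± 14.3 CPM in WT sperm, with overlapping libraries, and both ranked high among the genes tested (percentiles 96.4 and 96.3 of WT CPM). The other 5 members were at most at 0.976 ± 0.422 CPM per kilobase, the value of Sohlh2, with Mybl1 at 0.958 ± 0.175, Taf4b at 0.764 ± 0.189, Dmrt1 at 0.139 ± 0.0874 and Sohlh1 at 0.113 ± 0.0976. Sohlh2, Mybl1 and Taf4b overlapped as neighbours in this order, and so did Dmrt1 and Sohlh1.

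None of the 6 members tested was called in Xap5l KO sperm by edgeR, where 8.86% of the 20945 genes tested were called, 7.59% up and 1.27% down. At an unadjusted p under 0.05, 2 members were higher and 0 lower, 1 of them past 2-fold, and DESeq2 called 1 member. The median log2 fold change was 0.05 over the 6 members and -0.08 over all genes tested.

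Tcfl5 was read at 173, 96.4 and 93.8 CPM in WT and at 220, 186 and 226 CPM in Xap5l KO. The groups did not overlap and Xap5l KO was the higher one, as for 19.2% of all genes tested, although WT library 1 was close to Xap5l KO library 2. The log2 fold change was 0.80 (SE 0.282, 95% interval 0.17 to 1.43, adjusted p = 0.0853). Without WT library 1 it was 1.14 and passed the test (adjusted p = 0.0276), and over the 6 libraries left out in turn it ranged from 0.64 to 1.14. The antisense neighbour Col9a3 was at 0.527 ± 0.219 and 0.510 ± 0.169 CPM in the WT and Xap5l KO sperm.

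Dmrtb1 was read at 169, 90.2 and 108 CPM in WT and at 353, 292 and 144 CPM in Xap5l KO. Xap5l KO libraries 1 and 2 lay above every WT library, and library 3 lay below WT library 1, so the groups overlapped. The log2 fold change was 1.10 (SE 0.364, 95% interval 0.29 to 1.91, adjusted p = 0.0733). Without Xap5l KO library 3 it was 1.47 (adjusted p = 0.0108), and without Xap5l KO library 1 it was 0.83 (adjusted p = 0.206). DESeq2 called Dmrtb1 upregulated at 1.15 (adjusted p = 0.0141), and gave Tcfl5 at 0.84 (adjusted p = 0.0284), which is under 2-fold.

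**Figure D5:**
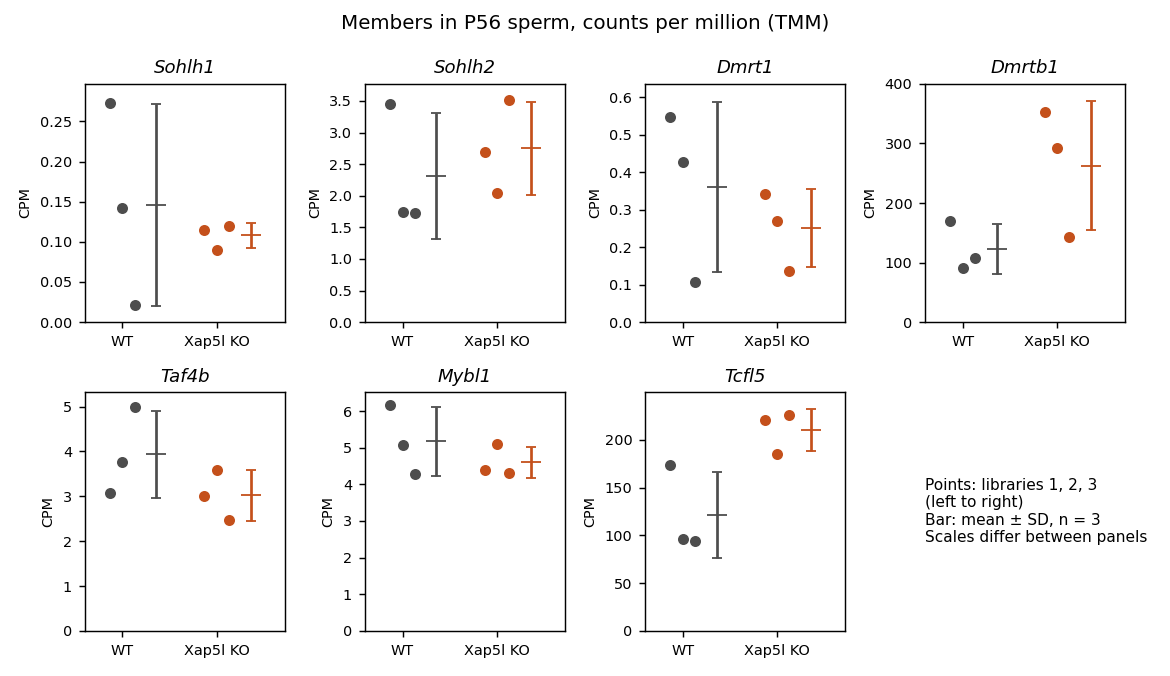
CPM (counts scaled to library size and TMM factor) of each member in the 3 WT and 3 Xap5l KO sperm libraries, with libraries 1 to 3 from left to right and the mean ± SD as a bar beside them (linear axes from 0, scales differ between panels). Tcfl5 and Dmrtb1 lie between 90.2 and 353 CPM, and no other member exceeds 6.16 CPM.

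The other 4 tested members did not pass the test, and their intervals included 0. Mybl1 was at 6.16, 5.09 and 4.27 CPM in WT and at 4.397, 5.09 and 4.31 CPM in Xap5l KO, with an interval of -0.69 to 0.35 that leaves no room for a 2-fold change. Taf4b was at 3.06, 3.76 and 4.99 CPM and at 2.998, 3.59 and 2.47 CPM, with an interval of -1.01 to 0.24. Sohlh2 was at 3.46, 1.74 and 1.73 CPM and at 2.68, 2.04 and 3.52 CPM, with an interval of -0.54 to 1.06.

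Dmrt1 and Sohlh1 were close to the limit of detection in sperm. The counts of Dmrt1 were 18, 18 and 5 for WT and 12, 15 and 8 for Xap5l KO. Its interval of -1.96 to 0.91 includes a 2-fold fall but not a 2-fold rise. With an SE of 0.641, a 2-fold difference would hardly have been detectable at this depth. Those of Sohlh1 were 9, 6 and 1 for WT and 4, 5 and 7 for Xap5l KO, too few for the filter on low counts.

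The within-library log2 ratio of Tcfl5 to Mybl1 was 4.81, 4.24 and 4.46 in WT and 5.65, 5.19 and 5.71 in Xap5l KO, a mean difference of 1.01 without overlap (exact permutation p = 0.1, adjusted 0.133). Tcfl5 was thus higher against Mybl1 in every Xap5l KO library. The ratio of Taf4b to Taf4 was -1.78 ± 0.22 and -1.82 ± 0.22 (SD, n = 3, exact permutation p = 0.5, adjusted 0.571). The ratio of Dmrtb1 to Dmrt1 rests on 5 to 18 counts of Dmrt1 and that of Sohlh1 to Sohlh2 on as few as 1 count of Sohlh1.

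Of 53 related and pathway genes tested in sperm, 8 were upregulated and 0 downregulated, beside 7.59% and 1.27% of all genes tested. Leaving out 1 library changed this count to between 0 and 11, with 0 without WT library 2, without WT library 3 or without Xap5l KO library 2, 3 without Xap5l KO library 1 and 11 without Xap5l KO library 3. Mybl2 went from 5.60 ± 1.35 to 12.4 ± 4.49 CPM, or 1.15 on the log2 scale (adjusted p = 0.0388). Dmrta2 had the largest rise of the 8, from 0.464 ± 0.0979 to 4.22 ± 1.603 CPM, or 3.19 on the log2 scale (adjusted p = 0.0118) on 17 to 19 counts in WT and 145 to 250 in Xap5l KO. Of the TFIID genes, Taf9 was upregulated by 1.31 (adjusted p = 0.0314) and the germ-cell paralog Taf7l by 1.51 (adjusted p = 0.0139). Brdt, Phf7, Tdrd6 and Mael completed the 8, with log2 fold changes of 1.36, 1.24, 1.54 and 1.21. Tdrd6 and Mael were the 2 called of 8 piRNA pathway genes known as A-MYB targets. The median of that piRNA list was -0.22, and Piwil1 was lower at -0.97 (adjusted p = 0.104). Of 9 tested regulators of meiotic entry 0 were called by edgeR or by DESeq2 and 1 was lower at an unadjusted p under 0.05, with a median of -0.45.

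Markers of germ-cell stages and other cells were counted in sperm as well. Of 7 round spermatid markers 6 were upregulated, with Spaca1, an acrosomal membrane protein, at 1.80 (adjusted p = 0.0118), and their summed level was 91.8 to 132 CPM in WT and 203 to 380 CPM in Xap5l KO. Of 8 pachytene markers 3 were upregulated, with Hspa2 at 1.67 (adjusted p = 0.0218). At an unadjusted p under 0.05, 6 of the 8 were higher and 1, Piwil1, was lower, at -0.97 (adjusted p = 0.104). Of 11 leptotene and zygotene markers 2 were upregulated, with Smc1b at 1.34 (adjusted p = 0.0309), and the median was 0.20. Of 8 markers of elongating spermatids and sperm 1 was upregulated, Akap4 at 1.09 (adjusted p = 0.0452). Their summed level was 52407 to 129871 CPM in WT and 44899 to 83941 CPM in Xap5l KO, with overlap. The summed pachytene level was 1663 to 2665 CPM in WT and 3413 to 3571 CPM in Xap5l KO. Of 7 leukocyte markers 1, S100a9, was downregulated at -2.09 (adjusted p = 0.0171), with sums of 672 to 730 CPM in WT and 122 to 441 CPM in Xap5l KO. Epididymal epithelium markers summed to 6134 to 8268 CPM and 4351 to 6027 CPM, and 0 of 6 were called by edgeR or by DESeq2, with 2 lower at an unadjusted p under 0.05. The part of these cells or stages in the values of Tcfl5 and Dmrtb1 was not tested.

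Side by side, Tcfl5 changed by -1.69 in Xap5 cKO testes and by 0.80 in Xap5l KO sperm, and Dmrtb1 by -2.09 and 1.10, where only the testis values passed the test. The comparisons concern different deleted genes, tissues and ages and separately normalized tables, and the difference between them was not tested.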

How the data were processed

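RNA-seq libraries of P16 testes and P56 cauda epididymal sperm were grouped by the sample labels. The authors enriched poly(A) RNA, trimmed reads with Trimmomatic 0.36, checked them with FastQC 0.11.2, aligned them to GRCm38 with HISAT2 2.1.0, and deposited raw counts per gene, 1 table per tissue. The submitters' processing notes also name DESeq2 1.12.4. The counting tool, its use of strand and how it treated multi-mapping reads are not given in the sources used here, and unstranded or shared reads could add to genes that overlap others.

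Each table was fitted on its own with edgeR 4.0.16 in R 4.3.3: filterByExpr, TMM and the quasi-likelihood test with genotype as the only term, with Benjamini-Hochberg adjustment over all genes tested. A gene was called at an adjusted p under 0.05 and a fold change above 2. Values are means ± SD of 3 libraries in TMM-scaled CPM, and intervals are 95% intervals of the log2 fold change from the same fit. Exon lengths and positions came from GENCODE vM21. Scripts were tested on simulated data.

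The members and lists were chosen with earlier results of these data known. Some genes stand in more than 1 list: Stra8, Kit, Figla, Dmrtc2, Taf7l, Tbpl1 and Piwil1. Genes named were the members, the called gene with the largest rise and the largest fall of each list in each tissue at 1 CPM or more, Fam50a, Fam50b and the 3 genes most like each member. Taf4, Col9a3 and Taf9 were chosen after their values were seen, as were Mybl2, Tbpl1, Etv5, Gfra1 and Ccnd2 in testes. The same holds for Piwil1 in sperm, the remaining called list genes of sperm and the ratios of paired genes.

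Alternatives were no filter or a minimum of 10 counts in every library, RLE size factors, library size alone, DESeq2 1.42.0, a replicate block, no fold threshold, each library left out in turn, and, added after seeing the data, the removal of mitochondrial genes and the 10 most abundant others.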

Additional observations from a re-analysis of the deposited data

How the results depend on the processing

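In testes the count of downregulated members was 3 under every alternative run other than removing the fold threshold, where it was 7. The related and pathway genes called in either direction were then 41 (37 down, 4 up) in place of 23 (21 down, 2 up). Leaving out 1 library gave 3 members each time and 19 to 25 related genes. In sperm 0 members were called in the fit reported, and 1, Dmrtb1, was called without a filter on low counts (log2 fold change 1.16, adjusted p = 0.037), with library size alone (1.11, adjusted p = 0.0404) and with DESeq2. Leaving out 1 sperm library gave 0 to 1 members and 0 to 11 related genes, and between 2 and 2845 calls over all genes. The cause was not tested. No member changed direction under any alternative run. Same-numbered libraries of the 2 genotypes did not regularly deviate together, with correlations of 0.17, -0.02 and -0.14 in sperm and 0.00, -0.04 and -0.05 in testes. The numbers were therefore not taken as pairs. Library 1 of sperm was an exception, with the 0.17 and low TMM factors of 0.821 in WT and 0.808 in Xap5l KO. Differently numbered sperm libraries reached 0.26, for WT library 3 and Xap5l KO library 2. A shared origin of the sperm libraries numbered 1 was not tested. With the replicate block 3 members and 24 related genes were called in testes and 0 and 7 in sperm. Summing entries whose name carries an added number was not run, since 0 members have such an entry. At the level of Dmrt1 in sperm, 5 to 18 counts, a 2-fold fall could not be told from no change.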

Other observations

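Each targeted gene was also read in the comparison that did not target it. Fam50b, the Xap5l gene, was at 12.0 ± 5.70 CPM in WT testes and 0.133 ± 0.116 CPM in Xap5 cKO testes (SD, n = 3). Its log2 fold change was -6.48 (SE 0.690, adjusted p = 8.09e-05) by edgeR. The study places Xap5l mRNA in pachytene spermatocytes and later cells, and saw no pachytene spermatocytes in Xap5 cKO testes from P16. The 8 pachytene markers had a median of -3.26 in this comparison. The part of missing cells in the Fam50b value was not tested. Fam50a, the Xap5 gene, was at 16.1 ± 1.053 CPM in WT sperm and 9.46 ± 1.46 CPM in that of Xap5l KO, or -0.76 on the log2 scale (SE 0.201, adjusted p = 0.0393). Fam50a in Xap5 cKO testes, where it was targeted in germ cells, had a smaller log2 fold change of -0.33 (SE 0.126, adjusted p = 0.0495). The part of somatic cells, where the gene was not targeted, in this value was not tested.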
